A study of Mus musculus with 48 samples.

Results

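A-to-I editing was compared in the thymus between 3 Adar1+/+ Ifih1-/- mice (WT) and 3 Adar1E861A/E861A Ifih1-/- mice (E861A), 6 of the 48 libraries of the series. All 6 were male C57BL/6 animals at 12 weeks of age, and both groups lacked Ifih1, which encodes the dsRNA sensor MDA5. The E861A allele is a germline point mutation that leaves an ADAR1 protein without deaminase activity, and whole thymus was used, so a level is an average over all cells of the organ, and more edited cells cannot be told apart from more editing per cell. Loci of known editing sites were amplified in multiplex and sequenced (mmPCR-seq), and a site's editing level is the fraction of edited bases among the reads that cover it. A site entered when, in each genotype, 2 or more of the 3 replicates had over 100 reads there, and it was called edited when its pooled level was above 0.01 (1%) in either genotype. Of 6497 covered sites, 529 were edited (8.14%), of which 43 lay at positions annotated as intergenic. No marker gene of thymocytes, thymic epithelium or the other cell types listed had a position with more than 100 reads, so the tissue label could not be checked against markers.

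ADAR1 and ADAR2 convert adenosine to inosine in double-stranded RNA, and inosine is read as guanosine by reverse transcriptase and by the ribosome. Most editing outside the nervous system lies in inverted repeats of introns and 3′ UTRs, whereas a small set of sites recodes proteins. ADAR1 editing marks endogenous dsRNA as self and prevents MDA5 activation, for which reason the E861A animals are studied on an Ifih1-/- background.

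The surroundings of the sites that the comparison turns on were read from the mm9 reference, 5′ to 3′ on the strand of the transcript, with 10 bases on each side and the edited adenosine in capitals. The first set is shown because these sites carried the deepest falls or were in genes past the threshold, and Ccni because it had the deepest fall among recoding sites:
Mad2l1, 3′ UTR, chr6:66490065-66490085, plus strand: aatgtgtgttAttgttccatt
Trim12c, 3′ UTR, chr7:111487810-111487830, minus strand: gtgtattcttAgtgatcactt
Cdh1, 3′ UTR, chr8:109192613-109192633, plus strand: tgatctgagaAgtgtgcagat
Rhoa, 3′ UTR, chr9:108239451-108239471, plus strand: tttgtgaattAggctgtaact
Mmgt1, 3′ UTR, chrX:53840810-53840830, minus strand: gtcagtgctaAgattataggt
Intergenic by the deposited annotation and within a UTR of Fam46c by GENCODE, chr3:100272390-100272410, minus strand: gtgtgtttatAtaggaaggtg
Ccni, Arg to Gly in the coding sequence, chr5:93618600-93618620, minus strand: tcttttggatAggtttttagc

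The second set is shown because these sites kept their level in E861A:
uc012aji.1, ncRNA and an exon of Tulp4 by GENCODE, chr17:6123037-6123057, plus strand: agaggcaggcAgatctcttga
Iqgap1, 3′ UTR, chr7:87857164-87857184, minus strand: aagaaaaaggAaaaaaaaaag
Cog3, Ile to Val in the coding sequence, chr14:76119516-76119536, minus strand: cattaaggaaAtttccctgga

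The third set is shown because these sites were above the limit in E861A alone:
uc009jwk.1, 3′ UTR and within Bcl7c by GENCODE, chr7:134807861-134807881, minus strand: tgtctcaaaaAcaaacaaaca
uc008wxi.1, Thr to Ala and within the coding sequence of Gtf3c2 by GENCODE, chr5:31475843-31475863, minus strand: ttggcctcgaActtgcgatcc
uc007hbj.1, 3′ UTR and within an exon of Lgr5 by GENCODE, chr10:114901361-114901381, minus strand: caaaatggaaAtcccattgct
The 21 bases of Mad2l1, Trim12c, Cdh1, Mmgt1, the chr3 site, Cog3, uc008wxi.1 and uc007hbj.1 had no other exact match in mm9 with A or G at the centre. Those of Rhoa had 3 other matches and those of Ccni 1, all with A. The uc012aji.1 window had 285 other matches, 56 of them with G, the Iqgap1 window had 23, 1 with G, and the uc009jwk.1 window had 975, 36 with G.

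Summed coverage was 8456922 to 10847485 per thymus library, with 5812 to 6746 sites over 100 reads and a median of 1066 to 1459 reads at those sites. The share of reads with an edited base differed among the WT libraries, at 0.682%, 1.47% and 0.250% in replicates 1, 2 and 3, and was 0.194%, 0.216% and 0.242% in E861A. WT replicate 3 thus stood apart from the other WT libraries, at the level of E861A, and results are given with and without it. At 4889 positions read in all 6 libraries and not edited, the median level was 0.0479% to 0.149%, which is the background of the assay here. Reads from PCR amplicons carry no molecular identifiers here, and intervals on shares therefore cover counting error only. The labels call the replicates independent biological ones, with 3 per genotype.

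Of the 529 edited sites, 479 were above the limit in WT and 76 in E861A, with 26 in both, which is 5.43% of the WT sites (Wilson 95% interval 3.73 to 7.83) and 34.2% of the E861A sites (24.5 to 45.4). Since 453 sites passed the limit through WT alone and 50 through E861A alone, the direction of these sites is partly fixed by the limit, and counts over them are a description. Just inside the limit were sites of Jmjd4 at 1.003%, Slc35e1 at 1.005% and Tcp11l1 at 1.006%. Just outside it were a Bri3bp site and a Dnajc18 site, both at 0.998%, and an intergenic site at 0.990%.

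Over the 482 edited sites read in all 6 libraries, the mean level was 5.08%, 10.5% and 0.991% in WT replicates 1, 2 and 3 and 0.773%, 0.454% and 0.586% in E861A. Each E861A library was under each WT library, but WT replicate 3 was closer to E861A than to the other WT libraries. Since 453 of the 529 edited sites passed the limit through WT alone, the order of the library means is partly fixed by the limit. In the share of edited reads, which uses no edited limit, each E861A library was also under each WT library. There WT replicate 3 (0.250%) was only just above E861A replicate 3 (0.242%). The difference was -4.91 percentage points (WT 5.52% ± 4.76, E861A 0.604% ± 0.161; SD, n = 3), with an exact permutation p of 0.1, two-sided, the smallest that 20 relabelings allow. Because the sites were chosen partly through WT, this p is a description and not support for a fall. No mean level was taken over sites chosen without regard to genotype. Leaving out WT replicate 3 gave -6.50 points, and leaving out WT replicate 2 gave -3.13 points. Per library, 306, 396 and 95 sites exceeded 1% in WT against 52, 28 and 39 in E861A, and 25, 80 and 4 exceeded 20% in WT against 2, 1 and 2 in E861A.

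**Figure D1:**
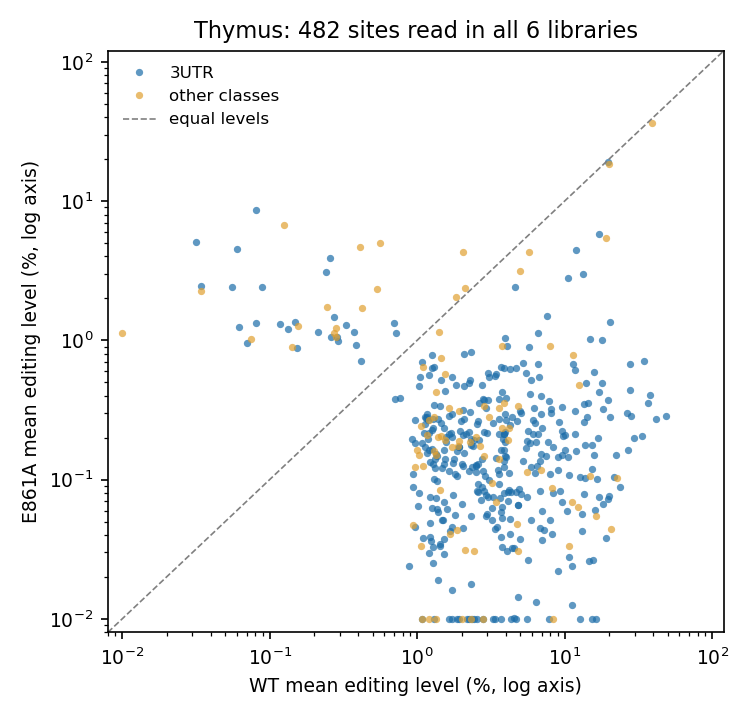
Each point is 1 of 482 edited sites, with the WT mean level on the horizontal and the E861A mean level on the vertical axis (percent, both log, means below 0.01% drawn at 0.01%, n = 3 per genotype). Most points lie below the dashed line of equal levels, 3 sites above 10% in every E861A library sit on it at the upper right, and the corner where both means are low is empty because a site had to pass 1% in a genotype.

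By site, limma called 0 of 529 sites lower and 0 higher at an adjusted p under 0.05 (0% in both directions), whereas the unadjusted p was under 0.05 at 75 lower sites (14.2%) and at 0 higher sites. The 3 WT and 3 E861A values did not overlap at 141 of 482 sites with E861A lower (29.3%) and at 9 with E861A higher (1.87%). Without WT replicate 3, limma called 223 of 560 sites lower (39.8%) and 0 higher, the set of sites being chosen anew. Leaving out any other library gave 0 calls. That library was singled out for its low editing, the quantity tested, so values without it are given beside the results as a description of how far they rest on it and not as support for a fall. The count also moved with the model while all 6 libraries were kept, to 219 with library weights, which were lowest for WT replicates 2 and 3, to 89 in a fit over all 48 libraries and to 19 with an offset of 0.001.

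The levels of WT libraries 1 and 2 also differed from each other. Of the 482 sites, 117 exceeded 10% in a single WT library, 105 of these in replicate 2, 12 in replicate 1 and 0 in replicate 3. At 50 of the 117, both other WT libraries were below 1%. The intronic Flna site chrX:71471989, in a gene for an actin crosslinker, read 60.3% in WT replicate 1 but 2.11% and 0% in replicates 2 and 3. An Rpa1 site at chr11:75114517 read 22.7%, 81.6% and 0% in WT replicates 1, 2 and 3.

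Only 5 of 482 sites exceeded 10% in all 3 WT libraries, in Rhoa, Trim12c, Iqgap1, Cog3 and uc012aji.1. At the 60 sites where WT replicates 1 and 2 were both above 10%, the median level in WT replicate 3 was 1.37%, 27 sites were below 1%, and 33 lay above every E861A library. Replicate 3 held at least the fraction 0.5 of the mean of replicates 1 and 2 at 6 of the 60 sites, the 5 above and Rpa1 chr11:75114120 (13.9%, 11.7% and 8.83%). Since these 60 sites were chosen for high levels in replicates 1 and 2, a lower level in replicate 3 is partly fixed by the choice. Outside them, the intergenic site chr17:39980697 was highest in WT replicate 3 (18.9%, 8.43% and 29.8% in WT; 2.57%, 4.42% and 9.42% in E861A). It is named after its values were seen.

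When the edited sites of a gene were averaged into 1 value, since they share amplicons, limma called 8 of 150 genes lower in E861A (5.33%) and 0 higher. At an unadjusted p, 28 genes were lower (18.7%) and 0 higher. The 8 genes were Rhoa, Cdh1, Trim12c, Dcp2, Wipi2, Nras, Dcaf10 and Mmgt1. Dcp2, Wipi2 and Dcaf10 lie outside the rule for named genes and are named because they passed the threshold. As most sites entered through WT, the choice of sites favours a fall. When sites were instead chosen on the level pooled over all 6 libraries, without regard to genotype, 9 of 117 genes were lower and 0 higher, with the 8 genes among them at adjusted p-values of 2.1e-05 to 0.0454. With the mean taken over every covered site of a gene and no limit, 2 of 295 genes were lower, Rhoa (adjusted p = 0.000616) and Dcp2 (adjusted p = 0.0130), and the other 6 had adjusted p-values of 0.461 to 0.499. In all 8 the lowest WT library was above the highest E861A library. Over all genes this held for 50 (33.3%), with 5 the other way (3.33%).

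Rhoa, a small GTPase of the cytoskeleton, had 1 edited site in this set, in its 3′ UTR (the fourth sequence of the first set). Its level was 28.1%, 35.5% and 20.8% in WT and 0.338%, 0.318% and 0.205% in E861A. All WT values were far above all E861A values, and WT replicate 3 kept most of the level of the other WT libraries. The limma log2 change on the gene scale was -4.94 (SE 0.377), with an adjusted p of 8.8e-06. Among sites the same 6 values gave an adjusted p of 0.167, as limma borrows the spread from all features fitted and these were sites in that case and genes in this one.

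Cdh1, the gene of E-cadherin, a cell adhesion protein of epithelia, had 2 edited sites in its 3′ UTR, and the higher, chr8:109192623, read 35.8%, 55.4% and 8.60% in WT and 0%, 0.244% and 0.373% in E861A. WT replicate 3 was the lowest WT library and still above E861A. The gene mean fell by 4.46 on the log2 scale (SE 0.663, limma adjusted p = 0.00271).

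Trim12c, a member of the TRIM family of antiviral proteins, had 3 sites in its 3′ UTR. At chr7:111487820 the level was 43.2%, 40.7% and 27.1% in WT and 0.706%, 0% and 0.362% in E861A, with no overlap. The other 2 sites, chr7:111487804 and chr7:111487800, had WT means of 1.23% and 1.71%. The gene mean fell by 3.74 on the log2 scale (SE 0.595, limma adjusted p = 0.00329).

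Mmgt1, which encodes a membrane protein of magnesium transport, read 20.3%, 26.7% and 2.15% over 2 sites in WT and 0.0406%, 0.228% and 0.174% in E861A (limma adjusted p = 0.0382). Nras, a small GTPase of growth signalling, read 8.74%, 17.8% and 4.32% in WT and 0%, 0.179% and 0% in E861A at its single site (limma adjusted p = 0.0315). In both genes replicate 3 was the lowest WT library.
Dcp2, the catalytic subunit of mRNA decapping, read 13.3%, 16.4% and 6.16% in WT and at most 0.357% in E861A (limma adjusted p = 0.0116). Wipi2, which acts in autophagosome formation, read 8.96%, 9.22% and 7.56% in WT and at most 0.530% in E861A (limma adjusted p = 0.0281). It was the gene of the 8 with the smallest WT spread (8.58% ± 0.894; SD, n = 3). Dcaf10, a substrate receptor of a ubiquitin ligase, read 8.34%, 15.6% and 3.66% in WT and at most 0.0995% in E861A (limma adjusted p = 0.0382).

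**Figure D2:**
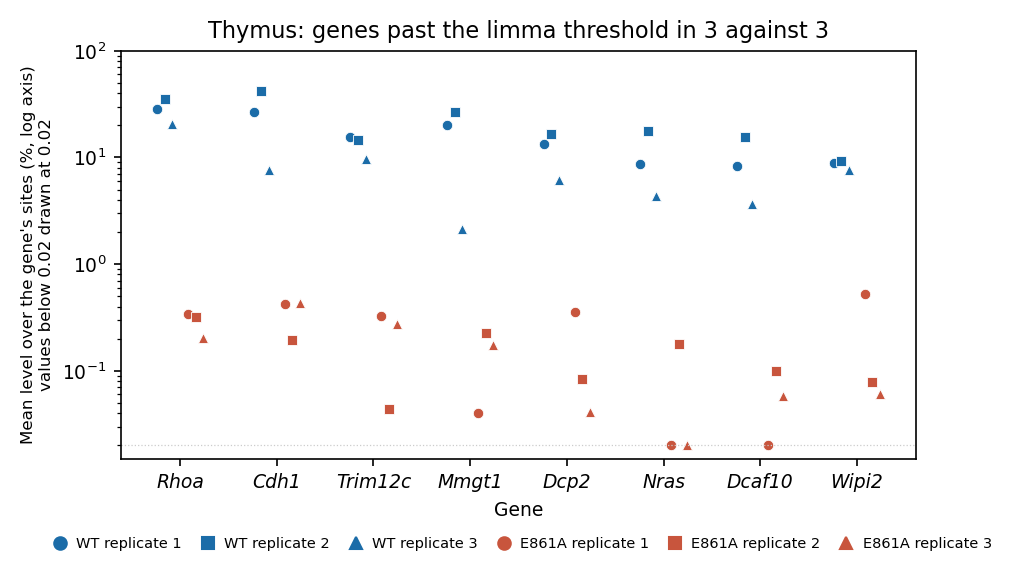
Mean level over the edited sites of each gene (percent, log axis, values below 0.02% drawn at 0.02%), with 1 point per library for the 8 genes that passed limma's threshold. All WT points lie above all E861A points, and the WT replicate 3 triangle is the lowest WT point in each gene.

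The count of 8 genes changed with the libraries used. It was 60 (40.3%) without WT replicate 3, and 2, 3, 3 and 4 without WT replicate 1 and E861A replicates 1, 2 and 3 respectively.

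The largest fall without overlap of the genotypes was in Mad2l1, a protein of the spindle assembly checkpoint. At chr6:66490075 the level was 64.5%, 75.9% and 5.29% in WT and 0.654%, 0.143% and 0.0671% in E861A. Replicates 1 and 2 of WT were high and replicate 3 was low, but above each E861A library. The log2 change was -5.83 (SE 1.44) with a limma adjusted p of 0.288 over all sites, and the adjusted p was 0.00246 without WT replicate 3.

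Mad2l1 also had the most edited sites, 23 within 674 bases of its 3′ UTR. WT replicates 1 and 2 ordered the sites similarly (Spearman rho = 0.90 across 23 sites of shared amplicons, a description), with 7 sites above 20% in both, whereas no site exceeded 5.29% in WT replicate 3. In E861A replicates 2 and 3 no site exceeded 0.732%. E861A replicate 1 exceeded 1% at 4 sites, and at chr6:66490206 it read 17.3% against 0% in both other E861A libraries and 6.75%, 44.8% and 0% in WT. The mean level over the 23 sites was 13.4% ± 11.6 in WT and 0.454% ± 0.597 in E861A (SD, n = 3, limma adjusted p = 0.176), and E861A replicate 1 was above WT replicate 3 (1.14% against 0.768%). Without WT replicate 3 the gene's adjusted p was 0.00291.

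**Figure D3:**
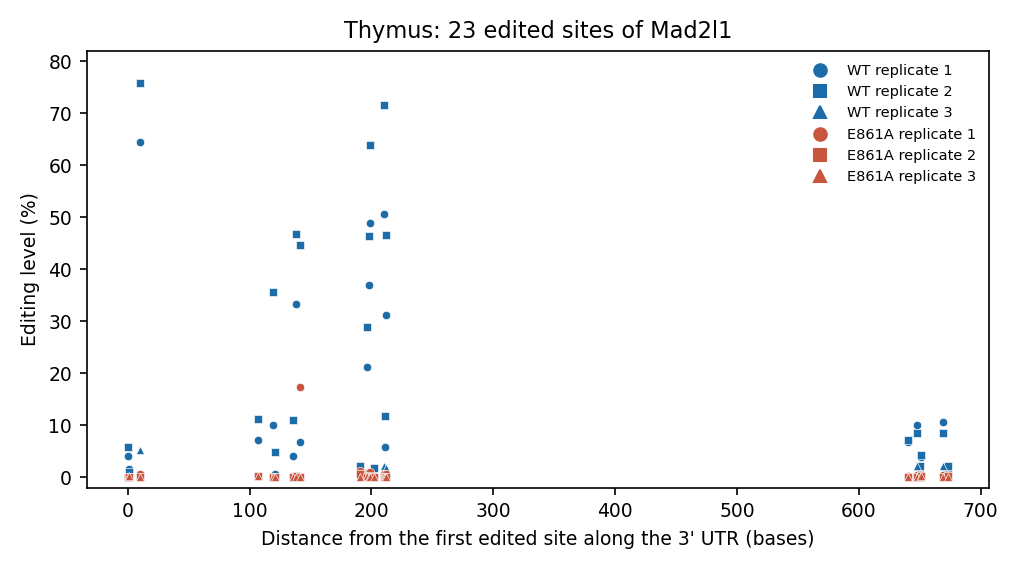
Editing level (percent) of the 23 Mad2l1 sites against their distance from the first site in bases, with 1 point per site and library. WT replicates 1 and 2 reach 64.5% and 75.9% while WT replicate 3 stays at or below 5.29%, and the E861A points are near 0 apart from the replicate 1 value of 17.3%.

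The 10 genes with the most edited sites held 132 of 529 sites (25.0%), and 91 genes had 1 site. After Mad2l1 came Rpa1 with 18 sites, Slc35e1 with 16, Ankrd28 with 13, Ovca2, Rnf168 and Rragd with 11 each, Bri3bp and Slc35e2 with 10 each, and Gla with 9. None of the 10 passed limma's threshold with all libraries, with adjusted p-values of 0.176 to 0.378. Without WT replicate 3, Slc35e1 and Rnf168 still did not pass it and the other 8 did. Their mean level was lower in E861A than in WT in each.
Rpa1, a subunit of the single-stranded DNA-binding complex, averaged 6.48%, 13.9% and 1.67% in WT and 0.472%, 0.169% and 0.252% in E861A, with no overlap. Ovca2, a serine hydrolase, averaged 6.37%, 25.5% and 0.818% in WT and 0.404%, 0.213% and 0.202% in E861A. Bri3bp, a membrane protein, averaged 7.73%, 20.9% and 1.02% in WT and 0.0420%, 0.139% and 0.183% in E861A. In these 3 genes each WT library was above each E861A library.
In Ankrd28, a regulatory subunit of protein phosphatase complexes, and Rragd, a GTPase of amino acid signalling to mTORC1, WT replicate 3 (0.176% and 0.179%) lay within the E861A range. Rnf168, a ubiquitin ligase of the DNA damage response, averaged 6.91% in WT replicate 1 but 0.0821% and 0.159% in replicates 2 and 3, against 0.130% to 0.166% in E861A. Its 11 sites lie within 52 bases, and only replicate 1 was edited there.

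Other sites with a large fall and no overlap were in Ovca2 (17.6%, 69.8% and 1.49% in WT, at most 0.261% in E861A) and in Malt1, a paracaspase of antigen receptor signalling (23.9%, 57.5% and 1.82% in WT, at most 1.81% in E861A). Malt1 was only just separated, between WT replicate 3 and E861A replicate 1. In Mdc1, a mediator of the DNA damage checkpoint, the values were 19.9%, 44.3% and 0.306% in WT and at most 0.149% in E861A. Nup155, a nucleoporin, read 19.9%, 22.0% and 3.98% in WT and at most 0.409% in E861A.
Bri3bp (chr5:125937297), Slfn5, Ppp1r15b and Iws1 completed the 3′ UTR sites of this group. Their WT means were 19.0%, 15.3%, 14.4% and 17.8%, and their E861A means were 0.0383%, 0.119%, 0.358% and 1.01%. None of these sites passed limma's threshold with all 6 libraries (adjusted p of 0.288 to 0.332), and the values without WT replicate 3 were 0.00246 to 0.0134. WT replicate 3 was the lowest WT library at every one of them.

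By annotation class, 417 of the edited sites were 3UTR, 43 intergenic, 31 intronic, 17 ncRNA, 12 Nonsyn, 5 Syn and 4 5UTR. The edited share of covered sites was 10.5% in 3UTR and 3.22% to 5.46% in the other classes. By GENCODE, 41 of the 43 sites labelled intergenic lay in an exon of a gene on the same strand, 39 of them in a UTR.

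In 3UTR sites (392 read in all libraries) the mean level was 5.26%, 11.3% and 0.862% in WT and 0.623%, 0.282% and 0.379% in E861A, a difference of -5.37 points. The groups did not overlap, though WT replicate 3 was only just above E861A replicate 1. In the 39 intergenic sites it was 4.97%, 9.22% and 1.39% in WT and 0.205%, 0.225% and 0.758% in E861A, a difference of -4.80 points without overlap. Both differences had an exact permutation p of 0.1 (0.25 adjusted over 5 classes), the smallest possible. Of the edited 3UTR sites 388 were above the limit in WT and 42 in E861A, and of the intergenic sites 39 and 5. The direction is therefore partly fixed by the limit, and the class p-values are a description.
In the 26 intronic sites the mean was 3.37%, 6.07% and 0.541% in WT and 1.06%, 0.418% and 0.595% in E861A. WT replicate 3 lay within the E861A range, and the difference of -2.63 points had an exact permutation p of 0.3.

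The mean levels of ncRNA and Nonsyn sites overlapped between genotypes. The 11 of 17 ncRNA sites read in all libraries averaged 4.85%, 5.91% and 3.99% in WT and 5.34%, 4.19% and 3.97% in E861A (exact permutation p = 0.6). The 10 of 12 Nonsyn sites read in all libraries averaged 4.89%, 4.57% and 2.33% in WT and 3.18%, 3.98% and 3.48% in E861A (exact permutation p = 0.7). In both classes the difference changed sign when a WT library was left out, to 0.0814 points in ncRNA without WT replicate 2 and to 0.0936 points in Nonsyn without WT replicate 1. The highest sites of the 2 classes were uc012aji.1 (WT mean 39.4%) and Cog3 (WT mean 19.9%).
The ncRNA site with the largest fall, uc007vsb.1 chr15:55087127, had too few reads in E861A replicate 1 and is not in the ncRNA mean. It read 12.9%, 67.2% and 0% in WT and 0.103% and 0% in E861A replicates 2 and 3 (limma adjusted p = 0.347, and 0.0471 without WT replicate 3). WT replicates 1 and 2 were high there and WT replicate 3 was at the level of E861A.

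**Figure D4:**
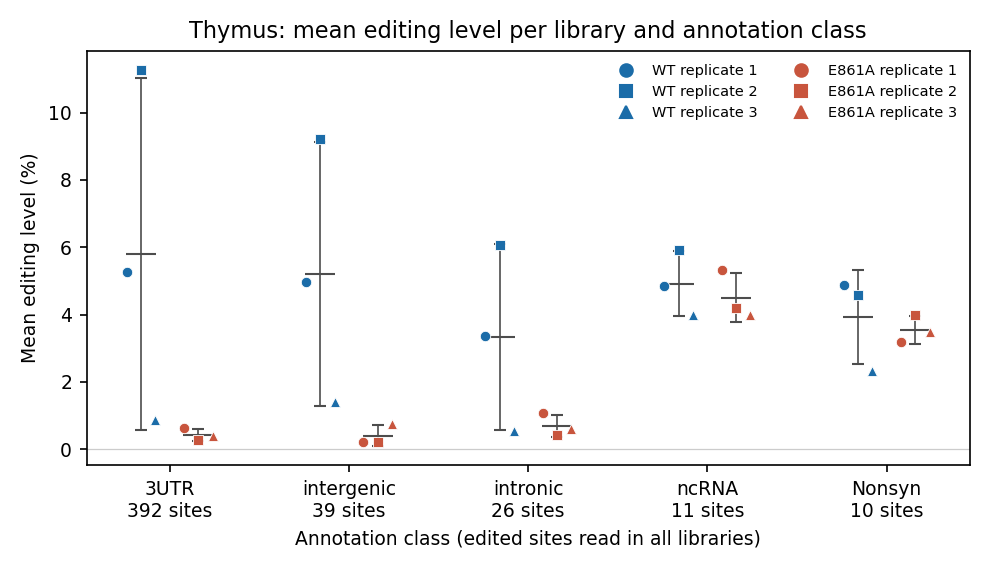
Mean editing level (percent) per library over the edited sites of each annotation class read in all 6 libraries, with horizontal bars at the genotype mean and error bars of 1 SD (n = 3). WT replicates 1 and 2 are above all E861A libraries in 3UTR, intergenic and intronic sites, WT replicate 3 is near E861A there, and the genotypes overlap in ncRNA and Nonsyn sites.

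Of the 12 Nonsyn sites, Ccni had the deepest fall. Ccni encodes cyclin I, and its Arg to Gly site read 4.60%, 6.43% and 1.65% in WT and 0.225%, 0.119% and 0.356% in E861A, without overlap (limma adjusted p = 0.332, and 0.00704 without WT replicate 3). The Ile to Val site of Copa, a coat protein of Golgi transport vesicles, read 1.20%, 1.24% and 2.20% in WT and 0.967%, 0.347% and 0.401% in E861A. WT replicate 3 was the highest library at this site, and the groups did not overlap (limma adjusted p = 0.418).
The Tyr to Cys site of Blcap, a conserved recoding target, was edited in WT replicate 1 alone (7.40%, against 0% and 0.0813% in WT replicates 2 and 3 and 0.101% to 0.294% in E861A). Gli1, a transcription factor of hedgehog signalling, was edited in WT replicate 2 alone (9.29%).
Flna, Gria3, Pcmt1, Stk36 and Arl6ip4 had E861A and WT means of at most 2.34% each at their Nonsyn sites. Of 27 listed genes with conserved recoding, 18 were covered and 9 had an edited site, and their 11 edited sites had a median change of -1.35 points, against -2.59 points over all 529 edited sites.

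The level was retained in E861A at 3 sites above 10% in every library. The site of uc012aji.1 read 38.5%, 42.0% and 37.7% in WT and 34.6%, 36.4% and 38.3% in E861A. Iqgap1, a scaffold of the cytoskeleton, read 20.3%, 20.6% and 18.0% in WT and 20.0%, 18.2% and 19.4% in E861A. Cog3, a subunit of a Golgi tethering complex, read 22.5%, 18.6% and 18.5% at its Ile to Val site in WT and 14.2%, 17.8% and 23.5% in E861A. The genotypes overlapped at each of the 3, and WT replicate 3 was close to the other WT libraries.
The log2 changes were -0.18 (SE 0.248), -0.04 (SE 0.520) and -0.14 (SE 0.554) with limma adjusted p-values of 0.534, 0.942 and 0.815. The Iqgap1 site lies in a run of A, and the uc012aji.1 window is repeated in the genome with G at 56 places; whether this bears on the levels was not tested. The neighbouring synonymous Cog3 site at chr14:76119527 read 0.962%, 0.857% and 3.65% in WT and 1.92%, 1.33% and 2.85% in E861A.

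Acot10, an acyl-CoA thioesterase gene, had 2 edited sites at synonymous positions. Of these, chr15:20595389 had the highest pooled E861A level of all edited sites (39.5%). The other, chr15:20595218, was at 32.6% pooled in E861A, below uc012aji.1 chr17:6123047 at 36.7%. At chr15:20595389 the level was 40.2% and 28.6% in WT replicates 1 and 3, was not read with enough coverage in replicate 2, and was 70.4%, 25.4% and 52.8% in E861A. The genotypes overlapped. Each Acot10 window had 1 other exact match in mm9, on chromosome X and with G at the position of the site. The 5UTR site of 2610044O15Rik at chr17:95233738 read 4.50% and 2.77% in WT and 5.58%, 14.2% and 66.7% in E861A, with too few reads in WT replicate 3, and had a limma adjusted p of 0.347.

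**Figure D5:**
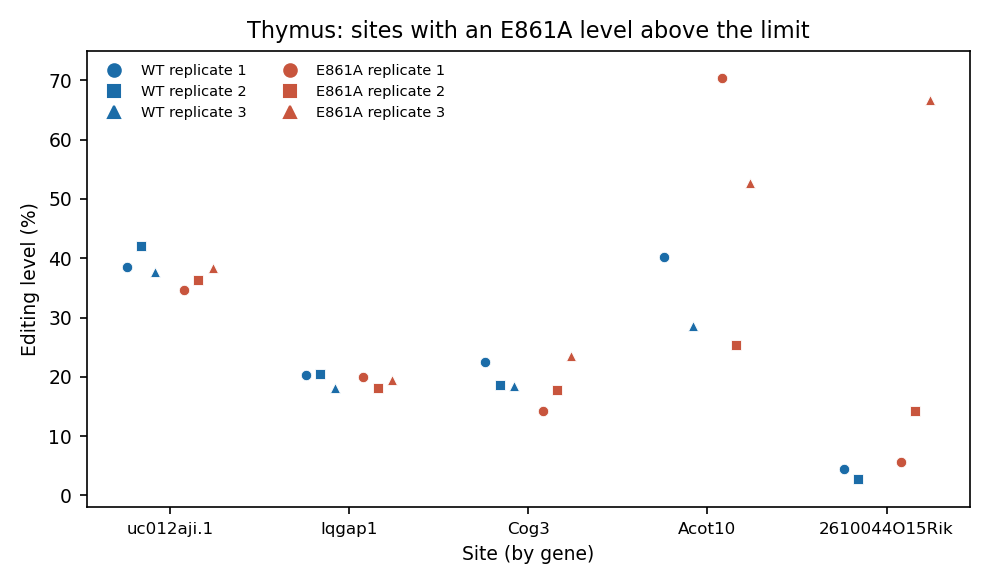
Editing level (percent) at 5 sites with an E861A level above the limit, with 1 point per library that had more than 100 reads. The uc012aji.1, Iqgap1 and Cog3 points of both genotypes overlap within a narrow range, while Acot10 and 2610044O15Rik spread widely among the E861A libraries.

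Most of the 76 sites above the limit in E861A were carried by 1 library. A single library exceeded 1% at 55 sites, 2 libraries at 8 and all 3 at 13, and the highest value came from E861A replicates 1, 2 and 3 at 32, 12 and 32 sites. Of the sites in the last sequence set above, uc009jwk.1 read 24.3%, 0.407% and 1.22% in E861A and at most 0.244% in WT. The uc008wxi.1 site read 0.963%, 18.8% and 0.447% in E861A and at most 0.188% in WT, and uc007hbj.1 read 14.9%, 0.116% and 0.131% in E861A and at most 0.0547% in WT. A different replicate could be the high library, and the groups did not overlap at these 3 sites although limma called none of them (adjusted p of 0.347 to 0.378). These sites entered through E861A alone and were named for their rise, so the direction is partly fixed by the choice. At uc007hbj.1 the values of E861A replicates 2 and 3 were below the medians of their own unedited positions (0.135% and 0.149%). The lack of overlap there is thus at the background of the assay.

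The bases next to the edited adenosine were a property that the rule did not use. T preceded 38.4% of the 479 sites edited in WT (Wilson 95% interval 34.2 to 42.8), 17.9% of the 5968 covered and unedited sites (17.0 to 18.9) and 6.00% of the 50 sites above the limit in E861A alone (2.06 to 16.2). G preceded 10.9% of the WT sites (8.38 to 14.0), 23.6% of the unedited sites and 20.0% of the E861A sites (11.2 to 33.0). With the limit at 0.05 in place of 0.01, T preceded 51.5% and G 4.24% of the WT sites. Of the first sequence set, Mad2l1, Trim12c, Rhoa, the chr3 site and Ccni have T before the site, and none of the sequences of sites kept or found in E861A alone does.
G followed 40.5% of the WT sites (36.2 to 45.0), 33.7% of the unedited sites and 48.0% of the E861A sites (34.8 to 61.5). The intervals on neighbour bases treat sites as independent, whereas sites of a gene share amplicons, so they are a description and may be too narrow. A window with another exact match in mm9 was found at 45.5% of the sites above the limit in WT alone and 44.0% of those above it in E861A alone.

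Few genes of the lists were amplified, so each count is given over the genes with a covered site, and over all 338 such genes 51.2% had an edited site. In T cell signalling, 3 of 31 genes were covered and 2 of these had an edited site, Rhoa and Il7r. Il7r, the interleukin-7 receptor that thymocytes depend on, read 5.02%, 5.49% and 0.225% in WT and 0.239%, 0.520% and 0.0631% in E861A at its 3′ UTR site. WT replicate 3 lay within the E861A range there (limma adjusted p = 0.347, and 0.00816 without it). In dsRNA sensing and editing, 1 of 19 genes was covered and it was edited, Adarb1, which encodes ADAR2. Its intronic site chr10:76786805 read 1.87%, 32.5% and 0.0760% in WT and 0%, 0% and 2.34% in E861A, so that WT replicate 2 alone was high.
In the ubiquitin and TRIM list, 2 of 13 genes were covered and both had edited sites, Trim12c and Rnf168, with a median change of -1.88 points over 14 sites. In the vesicle traffic list, 4 of 13 genes were covered and all 4 were edited, at 9 sites with a median change of -1.35 points. Of the 17 genes in the apoptosis list 1 was covered and it had no edited site, so the list was hardly measured. At site level 0 members of these lists passed limma's threshold with all 6 libraries, the share being 0% over all sites as well.

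The change was compared with that in the other blood-forming tissues, each with 3 WT and 3 E861A libraries, by an interaction contrast in limma. Against BM, 0 of 698 sites differed at an adjusted p under 0.05 (0% in both directions), with 36 less negative and 3 more negative in thymus at an unadjusted p under 0.05. Against spleen it was 0 of 633 (0%), with 27 more negative and 2 less negative in thymus at an unadjusted p. An unadjusted threshold of 0.05 passes a share of about 0.05 of sites with no difference. The unadjusted counts against both tissues were near that share and are not read as a tissue difference. Without WT replicate 3 of the thymus, 3 sites were more negative in thymus than in BM and 111 more negative than in spleen at an adjusted p under 0.05. Without WT replicate 2, 8 sites were less negative in thymus than in BM. The sites were chosen anew in each case, and WT replicate 3 was singled out for its low editing. These counts describe how far the contrast rests on single libraries and are not support for a tissue difference.

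The smallest p against spleen was at the Cdh1 site chr8:109192623. WT spleen read 0.281% to 0.922% there and WT thymus 8.60% to 55.4%, and the interaction was -4.73 on the log2 scale (SE 1.20, limma adjusted p = 0.579). Nras followed the same order, with a mean of 0.540% ± 0.792 in WT spleen and 10.3% ± 6.90 in WT thymus (SD, n = 3). In WT BM the Cdh1 site read 11.6% and 41.0% and the Nras site 23.9% and 25.2%, 1 BM library having too few reads at each. Spleen was thus the low tissue at both sites, without overlap with thymus. Both sites were named for a small p in this contrast, so their separation is partly fixed by the choice.
At Rhoa the WT mean was 28.1% ± 7.35 in thymus, 42.5% ± 7.29 in BM and 42.6% ± 2.82 in spleen (SD, n = 3), and E861A was at or below 0.443% in every library of the 3 tissues. The Trim12c site had WT means of 37.0%, 58.4% and 53.6% in thymus, BM (n = 2) and spleen. Iqgap1 was at 16.7% to 19.7% on average in both genotypes of the 3 tissues.

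Against BM, the Calcrl site chr2:84172932 was among those with the smallest p. It read 1.56%, 2.97% and 0.185% in WT thymus and 22.3% and 32.2% in WT BM, with E861A means of 0.186% and 0.214%, and the interaction was 4.00 on the log2 scale (SE 0.996, limma adjusted p = 0.345). Calcrl encodes a receptor of the calcitonin family. The Rnf168 site chr16:32299925 read 4.12%, 0.214% and 0.0697% in WT thymus and 49.3% and 20.6% in WT BM (interaction 4.60, SE 1.16, limma adjusted p = 0.345). Thymus was the lower tissue at both sites without overlap, and neither passed the adjusted threshold. As these 2 sites were also named for a small p, their separation is partly fixed by the choice.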

How the data were processed

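For each library the authors deposited a table of 48715 known sites with the count of covering reads, the number of those with an edited base, and their quotient as a fraction. The submitters' processing notes name STAR, SAMtools and mm9, with versions not given in the sources used here. The level was recomputed from the counts and matched within 0.00051 in all files; replicates at or below 100 reads were treated as missing. All 6497 covered sites carry A in mm9.

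Levels were compared with limma 3.58.1 in R 4.3.3 (lmFit, eBayes with a trend) after the transformation log2((level + 0.01)/(1 - level + 0.01)). P-values were adjusted by Benjamini-Hochberg over all edited sites, or over genes for the mean level over sites read in all 6 libraries, at 0.05. For library means, a two-sided exact permutation test was run (20 relabelings, smallest p 0.1). Shares carry Wilson 95% intervals. The fits were tested on simulated data. Sequences were read with samtools 1.23.1, and matches of 21 bases were searched on both strands in Python 3.11.15.

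Named sites were the 15 largest falls without overlap (1 per gene), the highest levels and largest rises in E861A, Nonsyn sites, the 10 genes with most sites, the largest fall per class, the smallest p-values and members of gene lists. Members, rule and lists were chosen with earlier results of these data known. Alternatives were other coverage and edited limits, offsets, scales, library weights, tests and each library left out. Of the Nonsyn sites, 1 is not reported here.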

Additional observations from a re-analysis of the deposited data

How the results depend on the processing

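All alternatives kept the sign of the fall in mean level, -6.50 to -3.13 points when a library was left out and -11.8 with an edited limit of 0.05, where 2.60% of covered sites were edited (2.54% in WT, 0.169% in E861A), 67 did not overlap with E861A lower and 1 with E861A higher. Over 500 reads, 4 sites were higher without overlap. Sites called lower were 0 in the main analysis and 0 to 223 with a library left out (223 without WT replicate 3, 0 in the other 5), 2 over 500 reads, 2 with coverage in all replicates, 2 with the limit of 0.05, 2 without a trend, 19 with an offset of 0.001, 219 with library weights, 5 with a quasi-binomial model, 29 with the F test criterion of the methods, and 89 lower and 5 higher in a fit over all 48 libraries. Of the alternatives chosen after seeing the data, the quasi-binomial model without WT replicate 3 called 207, leaving out sites with a second exact match called 0, choosing sites on the level pooled over both genotypes called 0 sites (73 lower at an unadjusted p under 0.05) and 9 genes (0 higher), a mean over every covered site of a gene called 2 genes, and the median over sites fell by 2.52 points. Genes called lower were 18 with an offset of 0.001, 3 with 0.05, 1 on untransformed levels, 77 with library weights and 2 to 60 with a library left out. Library weights were lowest for WT replicates 2 and 3 (0.102 and 0.115). Leaving out a library gave 6.06% to 9.80% of covered sites edited, 5.28% to 9.07% in WT and 1.13% to 1.48% in E861A, with 4.44% to 7.28% of WT sites shared, 136 to 329 sites without overlap lower and 13 to 23 higher. Class differences then ranged from -7.84 to -2.63 (3UTR), -6.70 to -2.79 (intergenic), -4.03 to -1.26 (intronic), -0.881 to 0.0814 (ncRNA) and -1.18 to 0.0936 points (Nonsyn).
The interaction counts were 0 to 3 more negative and 0 to 8 less negative against BM and 0 to 111 more negative against spleen with a thymus library left out (8 without WT replicate 2), and 34 against spleen with library weights. G preceded 4.24% of WT sites with the limit of 0.05. Log2 changes of single sites changed sign at Acot10 (0.88, and -0.13 over 50 reads, where WT replicate 2 entered with 72 of 88 reads edited), Flna chrX:71472201 (0.051 with an offset of 0.001 and -0.46 to 0.32 with a library left out), Iqgap1 chr7:87857174 (-0.11 to 0.0067), the Cog3 sites chr14:76119526 (-0.36 to 0.061) and chr14:76119527 (-0.029 to 0.65), each with a library left out, and uc008iss.1 (-0.45, and 0.13 with library weights). The cause was not tested.
The labels do not say that a replicate number pairs libraries across genotypes, so the block is an alternative only. Same-numbered libraries correlated at 0.106, 0.0870 and 0.0624 in their deviations from the genotype means, each the highest for its WT library. With the replicate number as a block, 2 sites were called lower and 2 higher, the latter both in Acot10, and 7 genes lower. With 3 libraries per genotype the exact test cannot go below 0.1.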
